A study of Homo sapiens with 4 samples.

Results

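Collagens are trimers of chains with long triple-helical stretches, and the 55 genes described here are all the chains named in the count table together with enzymes that modify them. The chains were the 44 rows whose symbol is COL, a number, A and a number with nothing after it, and the enzymes were the 11 genes PLOD1 to PLOD3, P4HA1 to P4HA3, LOX and LOXL1 to LOXL4, which makes 55 of 59050 genes. RNA was sequenced from RCC4, an established human clear cell renal cell carcinoma (ccRCC) line that lacks functional VHL, the ubiquitin ligase subunit that targets hypoxia-inducible factors (HIF) for degradation. The 2 groups were cells that carried a doxycycline-inducible Tet-pLKO-puro hairpin against PML, the scaffold protein of PML nuclear bodies (shPML), and cells that carried a scrambled hairpin in the same vector (shCtrl). Both groups received doxycycline at 100 ng/ml for 96 h in medium with tetracycline-free serum. The comparison asks how collagen RNA differed after PML silencing, within each of 2 experiments. The study describes 2 experiments with independent lentiviral infections, and the replicate numbers of the libraries were read as these. Each experiment so read holds 1 shPML and 1 shCtrl library, called replicate 1 in the first and replicate 2 in the second. The cells were infected bulk populations and not clones, and PML was silenced with 1 hairpin, so an effect of this hairpin on other genes and an effect of PML silencing cannot be told apart.

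Collagen chains fall into classes by the assemblies they form. Fibrillar collagens make the cross-striated fibres of connective tissue, type IV chains make the sheet of basement membranes, type VI chains make beaded filaments that link cells to their matrix, type VII makes the anchoring fibrils below epithelial basement membranes, and fibril-associated chains coat fibres made by others. In the endoplasmic reticulum, prolyl 4-hydroxylases, whose catalytic alpha subunits are the P4HA genes, hydroxylate prolines and so stabilise the helix, and the lysyl hydroxylases (PLOD genes) prepare lysines for cross-links. Outside the cell, lysyl oxidases (LOX and the LOXL genes) oxidise those lysines, and kidney tubule cells rest on a basement membrane that is rich in type IV collagen.

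Library totals were 53716181 and 36964369 counted reads in shCtrl replicates 1 and 2 and 69870617 and 27781193 in shPML replicates 1 and 2. The lowest total was thus that of shPML replicate 2. Of these reads the 55 genes took 0.639% and 0.813% in shCtrl replicates 1 and 2 and 0.803% and 0.950% in shPML replicates 1 and 2. PML itself was at 93.1 and 136 CPM in shCtrl and 54.9 and 87.6 CPM in shPML, replicate 1 first here and below, where CPM are counts relative to the library total after TMM scaling. The log2 fold change of PML (shPML over shCtrl, as everywhere below) was -0.69 ± 0.30 (SE, adjusted p = 0.32) in the fit of edgeR without a block, and -0.70 ± 0.11 (SE, adjusted p = 4.19e-07) with the experiment as a block, so PML was lower in both experiments and passed the test in the second fit. All 7 renal markers checked, PAX8 among them, passed the filter on low counts in these libraries. The library of shPML replicate 2 stood apart from the other 3. Its summed level of 5 leukocyte marker genes was 141 CPM, against 0.111 and 0.139 CPM in shCtrl and 0.181 CPM in shPML replicate 1. In that library LYZ was at 85.4 CPM, CD14 at 42.8 CPM and PTPRC at 12.6 CPM, while CD3E had no count in any library. It held 70 genes above 5 CPM that were below 0.3 CPM in each of the others, and no other library held such a gene, a cutoff chosen after the values were seen. The fibroblast and pericyte list summed to 19.7 and 24.9 CPM in shCtrl and 12.8 and 15.5 CPM in shPML, with LUM and DCN at 0 in every library, and the endothelial list to 0.166 and 0.389 CPM in shCtrl and 0.223 and 4.36 CPM in shPML, of which PECAM1 gave 4.11 CPM in shPML replicate 2. These libraries are of bulk RNA, in which fewer cells of a type and less RNA per cell cannot be told apart. The part of the leukocyte RNA in the values of shPML replicate 2 was not tested, and the genes called below are therefore also given for the first experiment alone.

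The collagen RNA of RCC4 cells was led by the chains of basement membranes. Levels of different genes are compared per length, as CPM per kilobase of exon. The length is the deposited summed exon length of a gene, which need not be that of the transcripts present. Orders, shares and ratios between genes therefore depend on it. COL4A1 and COL4A2, which assemble into the common trimer of type IV collagen, led the chains in all 4 libraries. COL4A1 was at 194 and 266 CPM per kilobase in shCtrl and 259 and 294 CPM per kilobase in shPML, and COL4A2 at 87.0 and 119 CPM per kilobase in shCtrl and 99.2 and 129.9 CPM per kilobase in shPML. Together they made 59.9% and 60.1% of all collagen chain RNA per length in shCtrl and 60.7% and 52.9% in shPML, the lowest share in the library that stood apart. COL7A1, the only chain of the anchoring fibril, came next by its mean, at 74.3 and 75.2 CPM per kilobase in shCtrl and 66.6 and 78.2 CPM per kilobase in shPML, although COL6A2 and COL6A1 were above it in shPML replicate 2. It was followed by COL6A2, COL6A1, COL18A1 and COL5A1 with means of 50.8, 46.5, 33.2 and 29.0 CPM per kilobase over the 4 libraries. The neighbours COL6A2 and COL6A1, and likewise COL18A1 and COL5A1, overlapped in their ranges over the libraries. The chains of type I and type III collagen, which dominate interstitial matrix, were low or at the floor. COL1A1 had 609 and 585 counts in shCtrl and 659 and 329 counts in shPML, its partner COL1A2 had 2 and 0 counts in shCtrl and 1 and 0 counts in shPML, COL3A1 had at most 2 counts in any library, and COL2A1 had none. Among the enzymes LOXL2, a lysyl oxidase that also acts in basement membranes, was the most abundant per length at 254 and 369 CPM per kilobase in shCtrl and 375 and 464 CPM per kilobase in shPML, above COL4A1 in each library. PLOD2, P4HA2, PLOD1, PLOD3 and P4HA1 lay between 65.7 and 103 CPM per kilobase as means over the libraries, with overlapping ranges for PLOD2, P4HA2 and PLOD1.

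**Figure D1:**
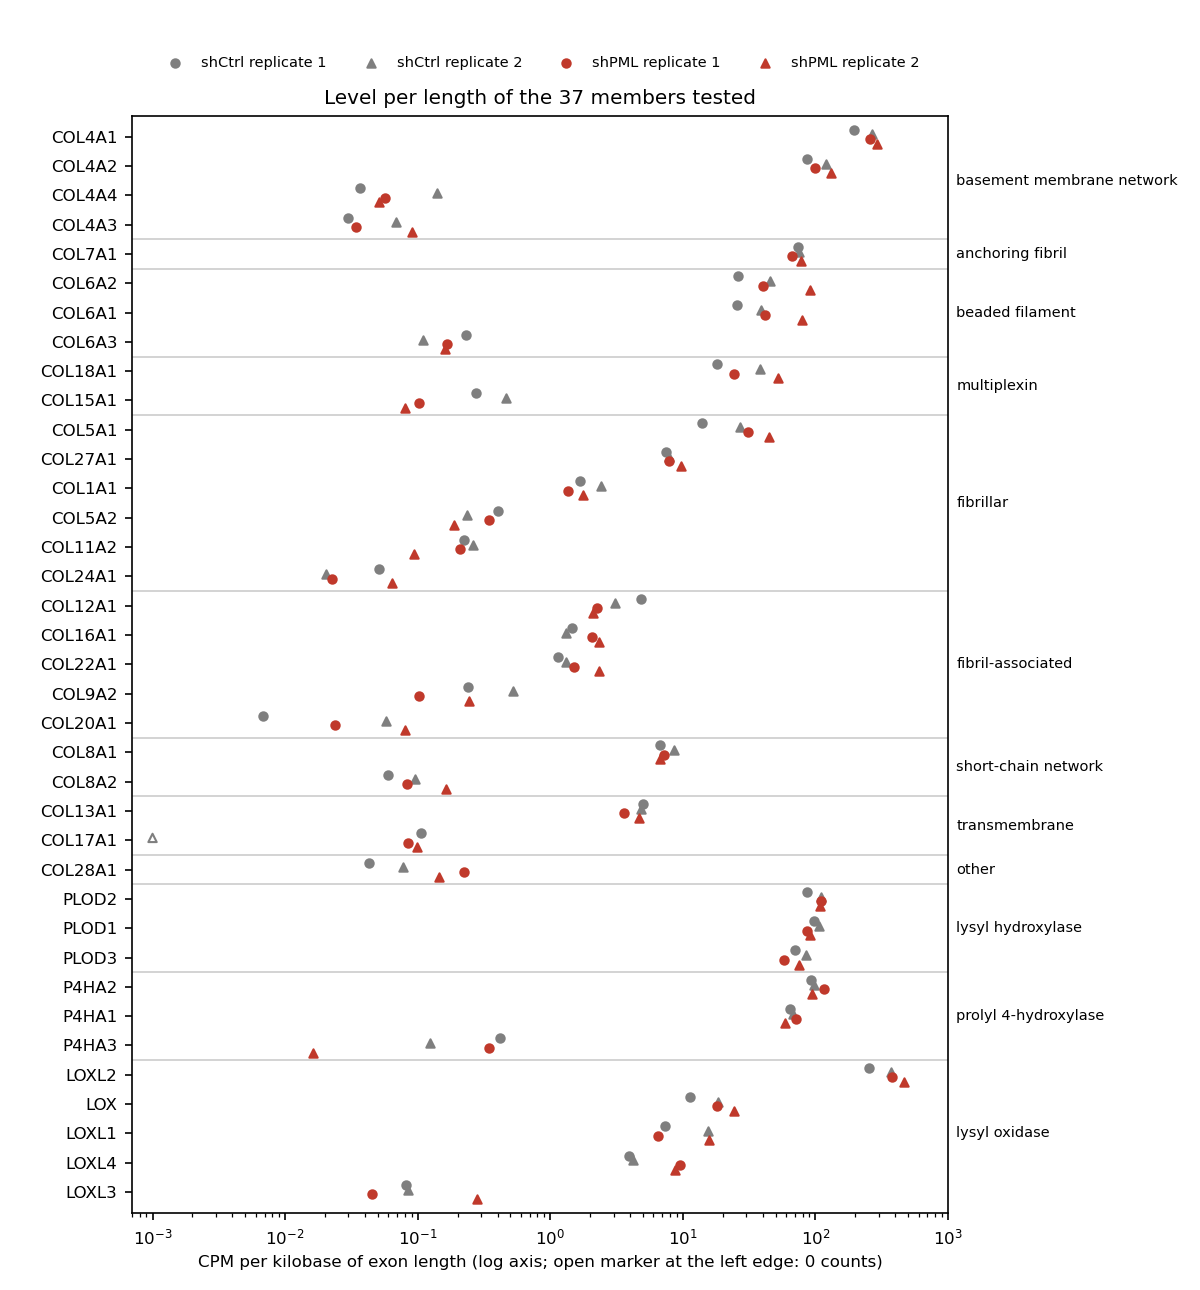
Level per length (CPM per kilobase of exon, log axis) of the 37 genes that passed the filter on low counts, by class and enzyme family, with 1 point per library. LOXL2, COL4A1 and COL4A2 lie at the right, and chains such as COL6A3 or COL5A2 lie far to the left of the partner chains they trimerise with.

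Chains that share a trimer were near parity for some types and far from it for others. COL4A1 exceeded COL4A2 by 2.23, 2.23, 2.61 and 2.26 times per length in shCtrl 1 and 2 and shPML 1 and 2. These ratios depend on the deposited exon lengths, 7449 bases for COL4A1 and 12971 bases for COL4A2. In CPM, not divided by length, the 2 chains lay closer, at 1445 and 1984 against 1129 and 1549 in shCtrl. In shPML they were at 1928 and 2189 against 1287 and 1685 CPM. The ratios are therefore no measure of the proportion of chains in the trimer. COL6A1 and COL6A2 were near parity, with ratios of 0.992, 0.856, 1.03 and 0.872 in the same order. COL6A3, the third chain of the common type VI trimer, was at 2.51 and 1.19 CPM in shCtrl and 1.80 and 1.75 CPM in shPML, and COL6A1 exceeded it per length by 112 to 496 times. COL5A1 exceeded COL5A2, the chain it joins in most type V collagen, by 34.7, 114, 90.0 and 235 times. COL8A1 exceeded COL8A2 by 113, 90.1, 85.7 and 40.8 times. The ratios with COL6A3, COL5A2 and COL8A2 rest on between 15 and 171 counts per library of the lower chain, so they are known only roughly.

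Of the 55 genes, 37 passed the filter and were tested, namely 26 of 44 chains and all 11 enzymes. The 18 chains left out were COL4A5, COL4A6, COL6A5, COL6A6, COL14A1, COL19A1, COL21A1, COL9A1, COL9A3, COL11A1, COL1A2, COL2A1, COL3A1, COL5A3, COL26A1, COL10A1, COL25A1 and COL23A1. COL9A1, COL2A1 and COL10A1 had no count, which allows up to 3 counts per library, and the others except COL23A1 had at most 15 counts in any library. COL23A1, a transmembrane chain, had 77 counts (2.80 CPM) in shPML replicate 2 and 0 in each of the other 3 libraries. Against a floor of 3 counts in shCtrl replicate 2 it was at least 33.6-fold higher in the library that stood apart.

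A gene was called when its Benjamini-Hochberg adjusted p in edgeR's quasi-likelihood test was under 0.05 and its log2 fold change was beyond 0.5. Without a block, 0 of the 37 genes were called higher, against 0.0787% of all 16516 genes tested, and 0 were called lower, against 0.333%. An unadjusted p under 0.05 was reached by COL16A1 and LOXL4 (2 higher) and by COL12A1 and COL15A1 (2 lower), 5.41% of the 37 in each direction, against 7.8% of all genes higher and 10.1% lower. The libraries of an experiment deviated together, and in 18 of the 37 genes (48.65%) the experiments differed more than the conditions did, against 42.01% of all genes. Once the experiment entered the fit as a block, 7 genes passed as higher (18.9%), against 8.57% of all genes tested, and 2 passed as lower (5.41%), against 10.5%. DESeq2, the count test that the study used, called 6 higher and 2 lower with the block and 1 higher and 2 lower without it, all among those 9. Over all 16516 genes DESeq2 called 1109 higher and 1386 lower with the block. Without the block it called 577 higher and 898 lower, where edgeR called 13 and 55. In replicate 1 alone, without the library that stood apart and without a test, 10 were higher by more than 0.5 on the log2 scale (background 14.2%) and 5 were lower (17.5%). In replicate 2 alone these were 12 (19.9%) and 6 (20.3%). Both shPML libraries were above both shCtrl libraries in 7 genes (background 23.1%) and below them in 5 (24.9%), shares of 18.9% and 13.5% of the 37 that are below the background. The median log2 fold change was 0.18 for the chains and 0.15 for the enzymes, beside 0.01 for all genes tested. Within replicates 1 and 2 the medians were 0.14 and 0.32 for the chains and 0.16 and -0.025 for the enzymes.

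**Figure D2:**
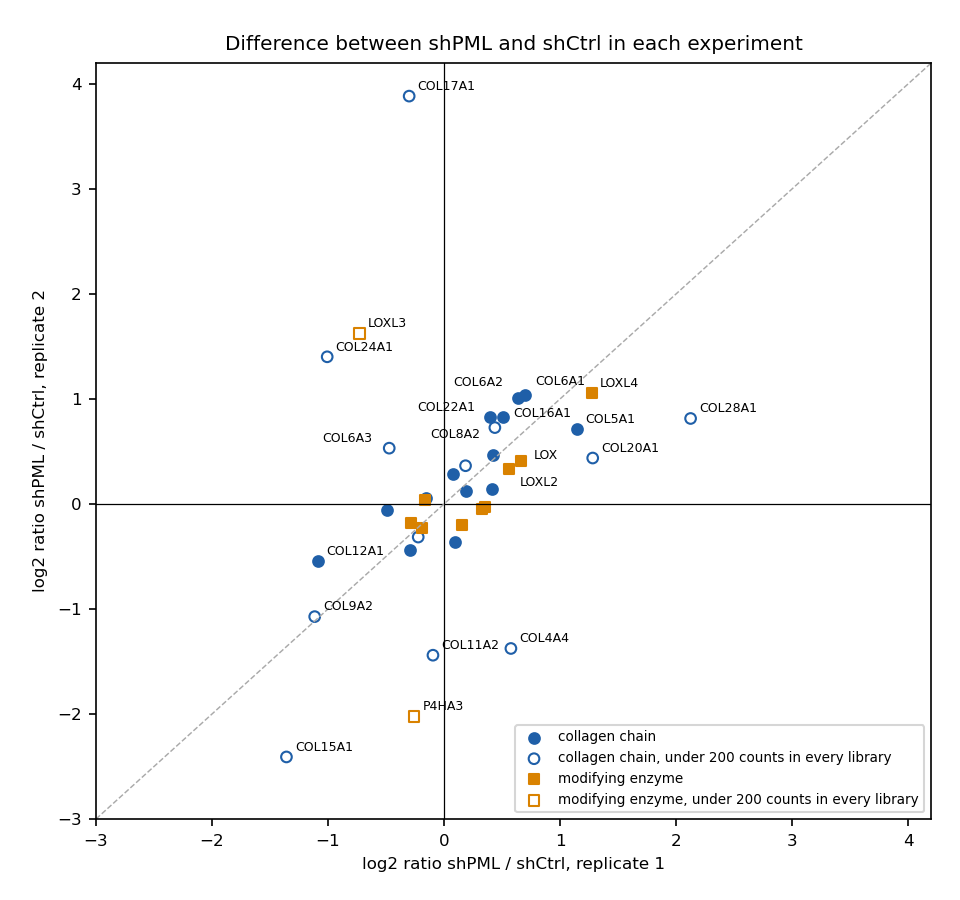
Log2 ratio of shPML over shCtrl in replicate 1 (horizontal) against replicate 2 (vertical) for the 37 genes tested, with 1 library per condition in each. Open symbols mark genes under 200 counts in every library, and these hold the points furthest from the dashed line of equal ratios; 16 genes are higher in both experiments and 10 are lower in both.

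The 9 called genes were COL6A1, COL6A2, COL5A1, COL16A1, COL22A1, LOX and LOXL4, which rose, and COL12A1 and COL15A1, which fell, in the fit with the block. In each of them replicate 1 alone had the same direction as replicate 2. The fit that selected these genes used both ratios, so this agreement is no independent check. Promoter windows are shown for 5 of them, so that genes that moved in the same fit can be compared, and for COL4A1, because it and COL4A2 are read in opposite directions from start sites 127 bases apart, so that their windows share 226 bases. The sequences are from RefSeq on GRCh38.p14, 250 bases before to 50 after a start site, written 5′ to 3′ on the gene's strand; 41 of the 55 genes had an entry. Capitals mark matches on either strand to GGGCGG (the GC box), CCAAT, and ACGTG and GCGTG (the core letters of the HIF-binding element). No match overlaps another in these windows. COL4A1 is at chr13:110307108-110307407 (minus strand), COL5A1 at chr9:134641553-134641852 (plus), COL6A2 at chr21:46097862-46098161 (plus), LOX at chr5:122078210-122078509 (minus), LOXL4 at chr10:98268145-98268444 (minus) and COL12A1 at chr6:75206004-75206303 (minus).
COL4A1: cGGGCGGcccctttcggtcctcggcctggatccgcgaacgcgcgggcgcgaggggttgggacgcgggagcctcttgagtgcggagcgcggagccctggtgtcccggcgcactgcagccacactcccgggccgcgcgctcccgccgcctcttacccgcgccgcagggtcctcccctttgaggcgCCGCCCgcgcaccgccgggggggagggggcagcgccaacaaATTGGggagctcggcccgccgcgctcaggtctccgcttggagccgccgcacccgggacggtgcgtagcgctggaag
COL5A1: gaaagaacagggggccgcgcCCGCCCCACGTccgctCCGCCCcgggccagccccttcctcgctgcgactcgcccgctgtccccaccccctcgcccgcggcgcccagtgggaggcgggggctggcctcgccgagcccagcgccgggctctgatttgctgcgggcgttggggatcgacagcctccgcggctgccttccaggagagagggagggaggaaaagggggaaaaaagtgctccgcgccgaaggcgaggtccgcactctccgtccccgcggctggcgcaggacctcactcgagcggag
COL6A2: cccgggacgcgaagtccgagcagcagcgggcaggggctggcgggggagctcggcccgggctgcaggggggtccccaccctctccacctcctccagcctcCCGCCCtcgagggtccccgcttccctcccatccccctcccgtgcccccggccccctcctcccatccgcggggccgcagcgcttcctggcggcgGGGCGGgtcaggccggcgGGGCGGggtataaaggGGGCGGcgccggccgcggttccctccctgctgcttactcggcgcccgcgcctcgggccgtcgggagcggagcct
LOX: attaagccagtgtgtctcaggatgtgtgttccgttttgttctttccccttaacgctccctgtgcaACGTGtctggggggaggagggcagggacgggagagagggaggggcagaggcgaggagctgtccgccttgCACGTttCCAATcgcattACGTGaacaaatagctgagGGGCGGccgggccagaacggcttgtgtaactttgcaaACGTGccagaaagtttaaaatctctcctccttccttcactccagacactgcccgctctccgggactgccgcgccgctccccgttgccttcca
LOXL4: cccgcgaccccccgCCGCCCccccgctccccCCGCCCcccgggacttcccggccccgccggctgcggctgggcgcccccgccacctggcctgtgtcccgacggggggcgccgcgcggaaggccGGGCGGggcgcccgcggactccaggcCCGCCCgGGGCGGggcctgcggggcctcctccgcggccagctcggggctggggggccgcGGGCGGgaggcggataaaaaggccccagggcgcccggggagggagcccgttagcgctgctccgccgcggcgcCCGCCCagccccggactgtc
COL12A1: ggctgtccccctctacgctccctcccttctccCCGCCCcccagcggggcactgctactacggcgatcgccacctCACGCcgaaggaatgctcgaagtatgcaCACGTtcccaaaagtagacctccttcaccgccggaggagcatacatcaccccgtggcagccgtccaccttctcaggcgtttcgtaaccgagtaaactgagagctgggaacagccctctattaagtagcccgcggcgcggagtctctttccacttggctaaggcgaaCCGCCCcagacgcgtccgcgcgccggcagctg

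These letters were common in promoters of all kinds. The 41 genes had 56 windows, since some have several start sites, and the first listed window is the one printed for COL5A1 and LOX. The GC box was in 30 of the 56 windows (53.57%) and in 44.95% of the 35116 windows of all genes. It was in 6 of 8 windows of risen genes and in both windows of fallen genes. Those 8 windows belong to 5 genes, and windows of COL5A1 and of LOX overlap, so some bases are counted more than once. The printed LOXL4 window held 7 of them and that of COL6A2 held 4. CCAAT was in 17 of the 56 windows (30.36%) and in 34.61% of all, with 1 of the 8 windows of risen genes and 0 of fallen genes. ACGTG was in 12 of the 56 windows (21.43%) and in 21.41% of all, and the printed LOX window held 4 such matches, those of COL5A1 and COL12A1 1 each. Of the 8 windows of risen genes 5 held it, all of them windows of COL5A1 or LOX, and both windows of fallen genes did. GCGTG was in 21 of the 56 windows (37.5%) and in 36.54% of all, with 3 of the 8 windows of risen genes and both of fallen genes. TGANTCA, the AP-1 letters, was in 1 of the 56 windows, an alternative window of COL10A1, and in 7.709% of all. COL6A1 and the other genes without an entry were not searched.

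Of the 3 type VI chains tested, COL6A1 and COL6A2 rose with the block and COL6A3 did not pass. COL6A1 (chr21:45981737-46005050, plus strand, GRCh38) was at 109 and 165 CPM in shCtrl and 177 and 338 CPM in shPML, with both shPML libraries above both shCtrl libraries. The shPML library exceeded its shCtrl library by a log2 ratio of 0.70 in the first experiment and 1.03 in the second. The fitted log2 fold change was 0.91 ± 0.36 (SE, adjusted p = 0.282) without a block and 0.87 ± 0.10 (SE, adjusted p = 3.59e-10) with it. In the fit without a block, leaving out shPML replicate 2, the library with leukocyte RNA, gave 0.38. Here and below, no fit with a library left out had a block, so the difference between the experiments enters these values. COL6A2 (chr21:46098097-46132849, plus strand) codes for a chain of the same trimer. COL6A2 was at 113 and 198 CPM in shCtrl and 177 and 399 CPM in shPML, so that shPML replicate 1 lay below shCtrl replicate 2 and the groups overlapped. The log2 ratio was 0.64 in the first experiment and 1.01 in the second, and the fits gave 0.88 ± 0.45 (SE, adjusted p = 0.396) without a block and 0.82 ± 0.10 (SE, adjusted p = 1.5e-09) with it. Every library moved this value by more than 1.5 times when left out, to 0.54 and 1.34 without shCtrl replicates 1 and 2 and to 1.35 and 0.19 without shPML replicates 1 and 2. COL6A3 was not called in either fit, with log2 ratios of -0.47 in the first experiment and 0.53 in the second. The class took 11.1% and 13.2% of collagen RNA per length in shCtrl and 14.0% and 21.3% in shPML and its highest share was in the library that stood apart.

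**Figure D3:**
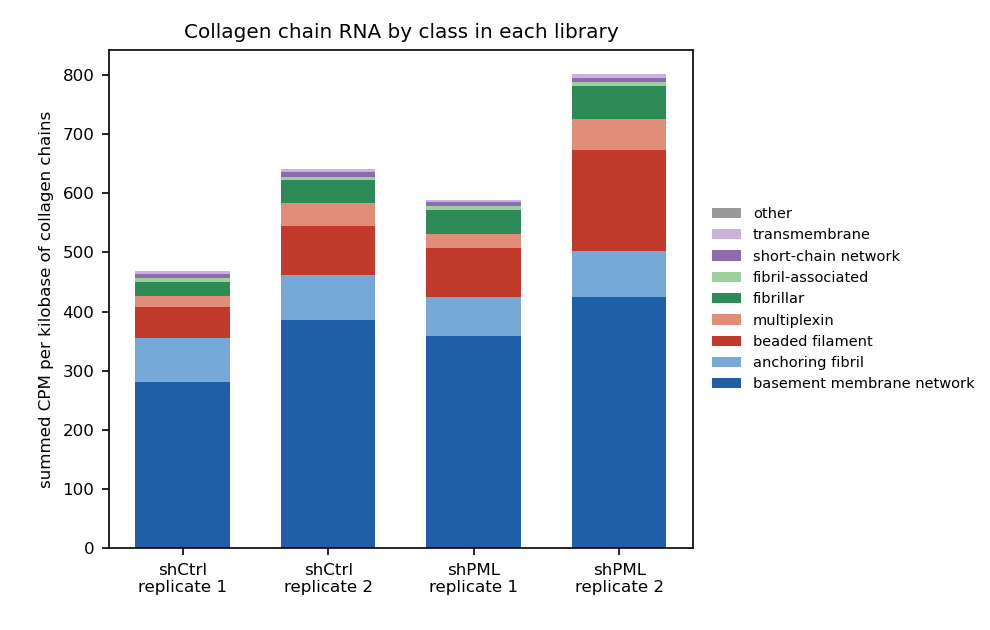
Summed level per length (CPM per kilobase) of the 44 collagen chains in each library, stacked by class. The sum was 469 and 642 in shCtrl and 589.5 and 802 in shPML (replicate 1 first), most of it from the basement membrane chains, and the beaded filament chains make their largest part in shPML replicate 2.

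Of the 4 type IV chains tested, which hold most of the collagen RNA, none was called in edgeR with or without the block. COL4A1 (chr13:110148963-110307157, minus strand) was at 1445 and 1984 CPM in shCtrl and 1928 and 2189 CPM in shPML, and the groups overlapped. Library against library, the log2 ratio was 0.42 in the first experiment and 0.14 in the second, with fitted values of 0.26 ± 0.21 (SE, adjusted p = 0.595) without a block and 0.28 ± 0.09 (SE, adjusted p = 0.00996) with it, where it passed on p and stayed short of 0.5. Without shCtrl replicate 1 the value was 0.053 and without shCtrl replicate 2 it was 0.51. COL4A2 (chr13:110307236-110513209, plus strand) was at 1129 and 1549 CPM in shCtrl and 1287 and 1685 CPM in shPML. It was not called in either fit, with 0.15 ± 0.23 (SE, adjusted p = 0.818) without a block and 0.16 ± 0.09 (SE, adjusted p = 0.184) with it. COL4A3 and COL4A4, chains of the trimer found in the glomerular filter, were at 13 to 50 counts and neither passed a test. COL4A4 was at 20 and 50 counts in shCtrl and 41 and 14 counts in shPML, with log2 ratios of 0.58 in the first experiment and -1.38 in the second, so the experiments went opposite ways. COL7A1 (chr3:48564073-48595267, minus strand) was at 689 and 697 CPM in shCtrl and 618 and 725 CPM in shPML, with -0.05 ± 0.16 (SE, adjusted p = 0.929) without a block.

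Among the fibrillar chains COL5A1, which limits the width of collagen fibres, was the most abundant and the only called gene. COL5A1 (chr9:134641774-134844843, plus strand) was at 119 and 230.4 CPM in shCtrl and 264 and 378 CPM in shPML, and both shPML libraries were above both shCtrl libraries, by a small margin between shPML replicate 1 and shCtrl replicate 2. It differed by a log2 ratio of 1.15 in the first experiment and 0.72 in the second, larger in the experiment without leukocyte RNA. The fits gave 0.88 ± 0.36 (SE, adjusted p = 0.291) without a block and 0.93 ± 0.10 (SE, adjusted p = 4.37e-11) with it. Without shCtrl replicate 1 the value was 0.48 and without shCtrl replicate 2 it was 1.43, both more than 1.5 times away. COL5A2, its partner, was not called and had 151 and 59 counts in shCtrl and 171 and 36 counts in shPML. Its ratios were below 0 on the log2 scale, -0.22 in the first experiment and -0.31 in the second, and its fitted value was -0.25 ± 0.49 (SE, adjusted p = 0.864) without a block. COL27A1, a fibrillar chain known from cartilage, was at 58.5 and 61.9 CPM in shCtrl and 61.7 and 75.4 CPM in shPML and was not called (with the block, 0.18 ± 0.11 SE, adjusted p = 0.257). COL1A1 was at 11.3 and 16.3 CPM in shCtrl and 9.19 and 12.0 CPM in shPML and was not called either (with the block, -0.36 ± 0.16 SE, adjusted p = 0.0789). COL11A2 was lower in both shPML libraries, at 1.48 and 1.75 CPM in shCtrl and 1.38 and 0.618 CPM in shPML, without passing. COL24A1 had 5 to 19 counts and a log2 ratio of -1.01 in the first experiment and 1.40 in the second, again opposite ways.

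The fibril-associated class held 2 risen genes and 1 fallen gene. COL12A1 (chr6:75084326-75206053, minus strand), a chain that binds the surface of type I fibres, was at 58.3 and 37.03 CPM in shCtrl and 27.4 and 25.3 CPM in shPML. The groups did not overlap, and the shCtrl libraries lay further from each other than the shPML libraries did. The fall was -1.09 in the first experiment and -0.55 in the second as a log2 ratio, and the fits gave -0.85 ± 0.25 (SE, adjusted p = 0.176) without a block and -0.83 ± 0.13 (SE, adjusted p = 3.57e-07) with it. Without shCtrl replicate 1 the value was -0.49. DESeq2 called COL12A1 lower with and without the block. COL16A1 (chr1:31652263-31704319, minus strand), a minor component of matrix near epithelia and muscle, was at 8.89 and 8.0 CPM in shCtrl and 12.7 and 14.3 CPM in shPML, with no overlap between the groups. On the log2 scale the step was 0.51 in the first experiment and 0.83 in the second, and the fits gave 0.67 ± 0.20 (SE, adjusted p = 0.178) without a block and 0.67 ± 0.17 (SE, adjusted p = 0.00146) with it. COL22A1, a chain of tissue junctions such as that of muscle and tendon, was at 7.32 and 8.36 CPM in shCtrl and 9.62 and 14.8 CPM in shPML, with no overlap. Here the log2 step was 0.39 in the first experiment and 0.82 in the second, under 0.5 in the first. The fits gave 0.64 ± 0.28 (SE, adjusted p = 0.313) without a block and 0.61 ± 0.18 (SE, adjusted p = 0.00586) with it, and 0.31 without shPML replicate 2. DESeq2 did not call COL22A1 with the block (0.62, adjusted p = 0.0669) or without it (0.65, adjusted p = 0.259). COL9A2 had 19 to 54 counts and COL20A1 had 3 to 18 counts per library, and neither passed.

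The multiplexins, basement membrane proteoglycans whose ends can be released as endostatin-like fragments, held 1 fallen gene and 1 that was not called. COL15A1 (chr9:98943713-99070792, plus strand) had 81 and 90 counts in shCtrl and 40 and 12 counts in shPML, which is 1.5 and 2.5 CPM in shCtrl and 0.558 and 0.436 CPM in shPML. Both shPML libraries were below both shCtrl libraries, and the log2 ratios were -1.36 in the first experiment and -2.41 in the second. The fits gave -1.98 ± 0.51 (SE, adjusted p = 0.139) without a block and -1.91 ± 0.50 (SE, adjusted p = 0.00208) with it, at few counts. DESeq2 called it lower with and without the block. COL18A1 (chr21:45405165-45513720, plus strand) was at 123 and 257 CPM in shCtrl and 164 and 355 CPM in shPML. The experiments differed more than the conditions, with log2 ratios of 0.42 in the first experiment and 0.47 in the second. It was not called, with 0.45 ± 0.49 (SE, adjusted p = 0.721) without a block and 0.44 ± 0.10 (SE, adjusted p = 0.000265) with it, where it passed on p alone. The value was 0.01 and 1.08 without shCtrl replicates 1 and 2, and 0.90 and -0.20 without shPML replicates 1 and 2. It overlaps SLC19A1 on the other strand, which had 2045 and 2440 counts in shCtrl and 2681 and 1796 in shPML, and the strand setting of the counting is not given in the sources used here. Of the remaining classes, COL8A1, a short-chain network former, was at 38.3 and 48.9 CPM in shCtrl and 40.9 and 38.1 CPM in shPML. The transmembrane chain COL13A1 was at 16.3 and 15.7 CPM in shCtrl and 11.6 and 15.1 CPM in shPML, and COL28A1 had 10 and 12 counts in shCtrl and 68 and 17 counts in shPML. None of these was called, and their log2 fold changes were -0.14 ± 0.18 (SE, adjusted p = 0.778), -0.26 ± 0.21 (SE, adjusted p = 0.595) and 1.62 ± 0.68 (SE, adjusted p = 0.303) without a block. COL17A1 had 0 counts in shCtrl replicate 2 and 16 to 36 counts elsewhere, and COL8A2 had 15 to 28 counts.

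**Figure D4:**
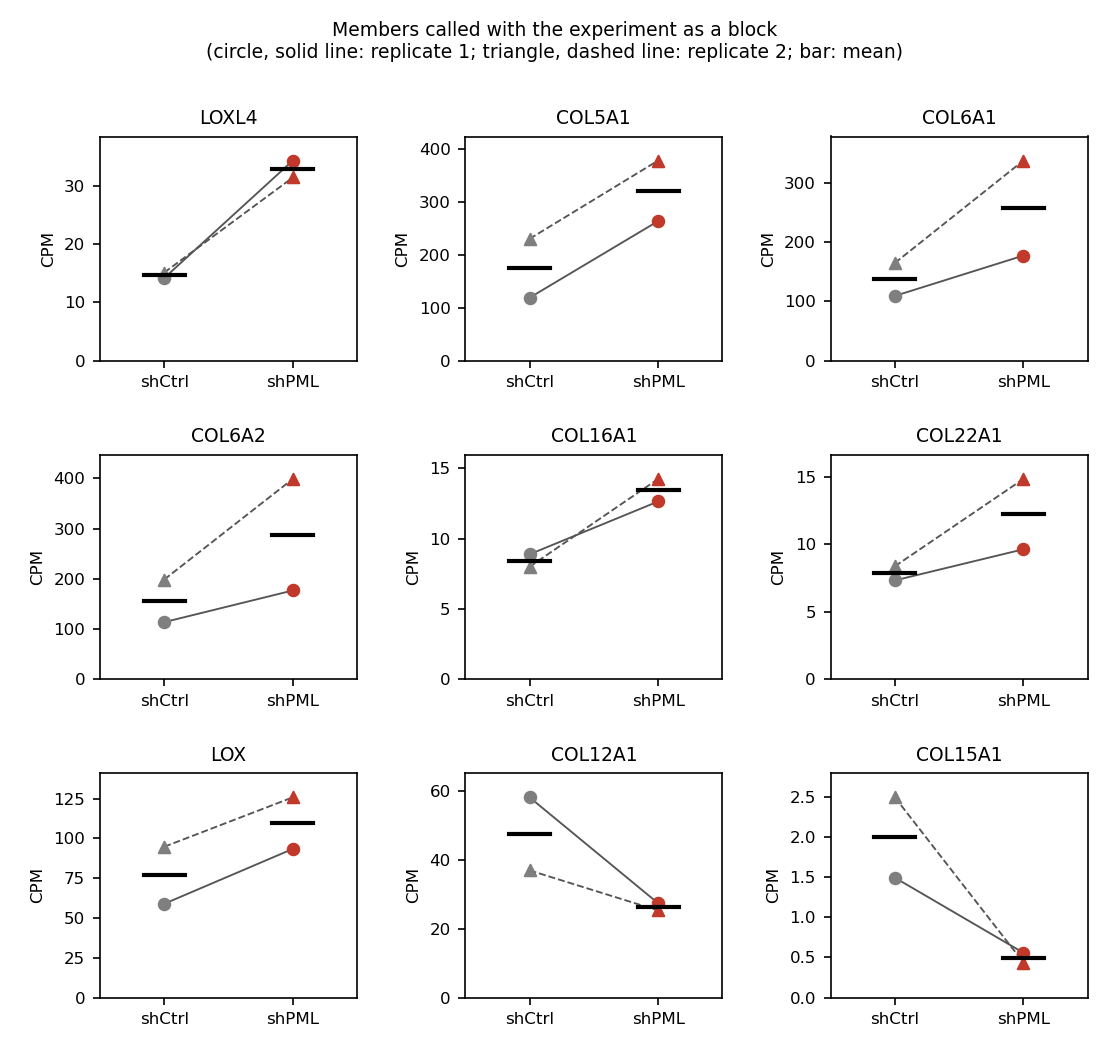
CPM in each library of the 9 genes called in the fit with the experiment as a block, with lines joining the 2 libraries of an experiment and bars at the group means (vertical axes start at 0 and differ in range). LOXL4 and COL16A1 have shCtrl libraries close together and shPML libraries close together, while in COL6A1, COL6A2 and COL5A1 the replicate 2 line lies above that of replicate 1.

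Of the enzymes, 2 of the 5 lysyl oxidases rose and no hydroxylase passed the test. LOXL4 (chr10:98247690-98268194, minus strand), a secreted lysyl oxidase, was at 14.2 and 15.1 CPM in shCtrl and 34.3 and 31.4 CPM in shPML. The libraries of a group lay close together and the groups were far apart. The steps were of like size, with a log2 ratio of 1.27 in the first experiment and 1.05 in the second. The fits gave 1.17 ± 0.16 (SE, adjusted p = 0.0617) without a block, the smallest adjusted p of the 37 genes, and 1.17 ± 0.13 (SE, adjusted p = 8.85e-11) with it. LOXL4 was also called by DESeq2 without the block and by edgeR with at least 10 counts in every library. Leaving out a library moved its value between 1.10 and 1.24. LOX (chr5:122063195-122078360, minus strand), the founding member and a known HIF target, was at 58.9 and 94.7 CPM in shCtrl and 93.4 and 126 CPM in shPML, and the groups overlapped by a small margin. LOX differed by a log2 ratio of 0.67 in the first experiment and 0.41 in the second, and the fits gave 0.51 ± 0.28 (SE, adjusted p = 0.432) without a block and 0.54 ± 0.11 (SE, adjusted p = 6.92e-05) with it. The value was 0.21 without shCtrl replicate 1, 0.90 without shCtrl replicate 2 and 0.30 without shPML replicate 2. LOXL2 was at 901 and 1308 CPM in shCtrl and 1331 and 1647 CPM in shPML, with both shPML libraries above both shCtrl libraries. The log2 ratio of LOXL2 was 0.56 in the first experiment and 0.33 in the second, and it passed on p but not on size with the block (0.45 ± 0.09 SE, adjusted p = 4.88e-05). Its value was 0.19 without shCtrl replicate 1, 0.72 without shCtrl replicate 2 and 0.28 without shPML replicate 2. LOXL1, which acts mainly on elastic fibres, was at 17.1 and 36.3 CPM in shCtrl and 15.3 and 37.1 CPM in shPML, and here the replicates differed more than the conditions. It overlaps LOXL1-AS1 on the other strand, which had 847 and 684 counts in shCtrl and 911 and 395 in shPML, so reads of the gene and its antisense partner may not be separated. LOXL3 had 19 and 13 counts in shCtrl and 14 and 33 counts in shPML, with a log2 ratio of -0.73 in the first experiment and 1.62 in the second, and it overlaps HTRA2.

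The prolyl 4-hydroxylase subunits P4HA1 and P4HA2, both known HIF targets, were not called in either fit. P4HA1 was at 189 and 198 CPM in shCtrl and 210.3 and 172 CPM in shPML, with -0.01 ± 0.17 (SE, adjusted p = 0.978) without a block. P4HA2 was at 345 and 359.7 CPM in shCtrl and 434 and 349 CPM in shPML, with 0.15 ± 0.17 (SE, adjusted p = 0.741). P4HA3, a subunit of restricted expression, had 51 and 10 counts in shCtrl and 56 and 1 counts in shPML and was not called. Of the lysyl hydroxylases, PLOD2, which hydroxylates the telopeptides where cross-links form and is a known HIF target, was at 383 and 489 CPM in shCtrl and 488 and 481 CPM in shPML, with 0.15 ± 0.18 (SE, adjusted p = 0.75). PLOD1, which hydroxylates lysines in the helix, was at 292 and 317 CPM in shCtrl and 256 and 271 CPM in shPML. Both shPML libraries were below both shCtrl libraries, by little, and neither fit called it (with the block, -0.21 ± 0.10 SE, adjusted p = 0.101). PLOD3, which also adds sugars to hydroxylysine, was at 198 and 240.0 CPM in shCtrl and 162 and 211 CPM in shPML and was not called (with the block, -0.24 ± 0.10 SE, adjusted p = 0.0636). A p that misses the threshold does not show that the levels were equal.

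The other genes of the collagen pathway were counted in the same fits. They were 57 genes in 5 lists, of which 43 were tested. Without a block 1 rose and 1 fell, both of them collagen receptor subunits, against 0.0787% and 0.333% of all genes tested. With RLE scaling 0 and 0 were called. ITGA2, an alpha subunit of a collagen-binding integrin, was at 14.6 and 12.6 CPM in shCtrl and 42.8 and 40.5 CPM in shPML (1.62 ± 0.17 SE, adjusted p = 0.0484). ITGB1, its beta subunit partner and that of many other integrins, was at 795 and 707 CPM in shCtrl and 251 and 222 CPM in shPML (-1.67 ± 0.17 SE, adjusted p = 0.0484). In both genes the libraries of a group lay close together and the groups were far apart. With the block 16 rose (37.2%, against 8.57% of all genes tested) and 6 fell (14%, against 10.5%). In replicate 1 alone, with no test, 19 were higher by more than 0.5 (44.2%, against 14.2%) and 7 were lower (16.3%, against 17.5%). The median log2 fold change of the 43 was 0.36, beside 0.01 for all genes tested.

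By list, with the block, 3 of 12 genes of hydroxylation and folding rose and 2 fell. For this list and those that follow, the shares over all genes tested were 8.57% higher and 10.5% lower. FKBP10, a chaperone and prolyl isomerase of procollagen, was at 314 and 314 CPM in shCtrl and 533 and 616 CPM in shPML, and P3H4, which assists lysine hydroxylation, at 49.6 and 73.9 CPM in shCtrl and 93.4 and 134 CPM in shPML. P3H1, the prolyl 3-hydroxylase that works with CRTAP, fell, at 149.9 and 166 CPM in shCtrl and 75.7 and 77.4 CPM in shPML. In these 3 genes the experiments gave similar steps. Of 13 genes of secretion and propeptide removal 4 rose and 3 fell. ADAMTS14, an enzyme that removes amino-terminal propeptides, was at 8.81 and 6.69 CPM in shCtrl and 22.7 and 29.0 CPM in shPML, while ADAMTS2, which does the same, was at 2.66 and 2.97 CPM in shCtrl and 0.642 and 1.85 CPM in shPML and fell. TLL1, a relative of the carboxy-propeptidase BMP1, was at 1.57 and 0.806 CPM in shCtrl and 3.77 and 3.16 CPM in shPML and rose. BMP1 itself also rose, at 74.5 and 104 CPM in shCtrl and 161 and 204 CPM in shPML. TLL2, of the same family, fell, at 34.4 and 40.4 CPM in shCtrl and 17.9 and 20.3 CPM in shPML. Of 4 fibril partners tested 1 rose, SPARC, a matrix protein that binds collagen, at 0.739 and 1.33 CPM in shCtrl and 7.30 and 18.7 CPM in shPML. Of 6 receptor genes 2 rose and 1 fell, and the other risen gene was DDR1, a tyrosine kinase activated by collagen, at 83.7 and 99.4 CPM in shCtrl and 149 and 215 CPM in shPML.

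The degradation list had 8 tested genes, the proteases named below and the metalloproteinase inhibitors TIMP1 and TIMP2. With the block 6 of the 8 rose and none fell, against backgrounds of 8.57% and 10.5%, and all 6 were proteases. The inhibitors were not called with the block (TIMP1 0.22 ± 0.10 SE, adjusted p = 0.0918, and TIMP2 0.13 ± 0.10 SE, adjusted p = 0.375). In MMP9, MMP2, CTSK and MMP14 the highest value was that of shPML replicate 2, the library that stood apart. MMP9, a gelatinase, was at 2.73 and 16.1 CPM in shCtrl and 14.6 and 449 CPM in shPML, MMP2, another gelatinase, at 0.166 and 0 CPM in shCtrl and 0.558 and 5.02 CPM in shPML, and CTSK, a collagenolytic cathepsin, at 0.924 and 0.611 CPM in shCtrl and 1.604 and 12.2 CPM in shPML. MMP14, a membrane-bound collagenase, was at 102 and 101 CPM in shCtrl and 131 and 248 CPM in shPML. CTSB, a lysosomal protease, was at 609 and 485 CPM in shCtrl and 1013 and 1022 CPM in shPML and MMP1, the interstitial collagenase, at 9.37 and 7.08 CPM in shCtrl and 14.2 and 12.4 CPM in shPML, and in these the shPML libraries lay close together. For MMP9, MMP2 and CTSK the log2 ratios within replicate 1 were 2.40, 1.53 and 0.77, and within replicate 2 4.80, 6.90 and 4.23. MMP2 had 9 and 0 counts in shCtrl and 40 and 138 counts in shPML. Its ratio in replicate 2 is thus against 0 counts, and its size depends on the prior count of 2. In replicate 1 alone 5 of the 8 were higher by more than 0.5 (62.5%, against 14.2% of all genes tested) and 0 were lower (against 17.5%). The summed leukocyte markers were 141 CPM in shPML replicate 2 against 0.111 to 0.181 CPM in the others, and their part in the degradation gene values was not tested.

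LOX, P4HA1, P4HA2 and PLOD2 belong to the genes that HIF can induce, so 12 other HIF target genes were read beside them. With the block 2 rose, NDUFA4L2 and EGLN3, and 2 fell, SLC2A1 and ANKRD37, each 16.7% of the 12 against 8.57% and 10.5% of all genes tested. Without it an unadjusted p under 0.05 was reached by 2 higher and 2 lower genes, against 7.8% and 10.1%. NDUFA4L2, a mitochondrial protein abundant in ccRCC, was at 259.6 and 371 CPM in shCtrl and 445 and 779 CPM in shPML, and SLC2A1, a glucose transporter, was at 846 and 1154 CPM in shCtrl and 527 and 656 CPM in shPML. The median log2 fold change of these 12 genes was 0.15, beside 0.01 for all genes tested.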

How the data were processed

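RNA of 2 shCtrl and 2 shPML libraries of RCC4 cells was measured. Per the study's methods and the submitters' processing notes, single-end reads of stranded mRNA libraries were trimmed (Trimmomatic 0.39), aligned to GRCh38 (STAR) and assigned to Gencode genes (featureCounts 1.6.4). The authors deposited raw counts per gene without normalization, with the summed exon length and position of each gene; the deposited lengths were used for levels per length. Columns were matched to samples by name. The shCtrl and shPML columns without a number were taken as replicate 1, since the others carry the number 2, and a note in the record says that 2 swapped labels were corrected. Counting error only is covered by the floor of 3 counts.

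Counts were scaled by TMM and tested in R 4.3.3 with edgeR 4.0.16 (filterByExpr, which kept 16516 genes; quasi-likelihood test; Benjamini-Hochberg adjustment over all of them). SEs were taken from the fold change and its F statistic. Ratios within a replicate used CPM with a prior count of 2. The study's own test was DESeq2. DESeq2 1.42.0, RLE scaling, other filters and fold thresholds, the experiment as a block and each library left out were tried. The pairing was checked: the study describes 2 experiments with independent infections, the replicate numbers were read as these, and the deviations of the replicate 1 libraries from their group means correlated at 0.546 over genes, which are not independent replicates. The block lowered the common dispersion from 0.0813 to 0.0137. With 2 libraries a group, edgeR draws the spread of each gene toward that of all genes tested. The SEs and p-values therefore do not measure the agreement of a gene's own 2 experiments alone. With the block the SE was 0.10 for COL5A1 (log2 ratios 1.15 and 0.72) and 0.10 for PLOD1 (-0.19 and -0.23). Spread beyond these libraries is not covered. The scripts were tested on simulated data. The genes named with values are those called in either fit, the most abundant of each class and family, those beyond 0.5 in opposite directions in the 2 replicates, all 11 enzymes, and up to 3 called genes of each other list. CTSB, MMP1, MMP14, TIMP1, TIMP2, BMP1 and TLL2 were named after their values were seen. The members and the lists were chosen with earlier results of these data known. MRC2 of the receptor list was not analysed here, and 1 gene of the leukocyte list is not reported here by itself.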

Additional observations from a re-analysis of the deposited data

Results flagged for a closer look

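In 3 genes of low count the experiments went opposite ways by more than 0.5 on the log2 scale. The log2 ratio of shPML over shCtrl in replicates 1 and 2 was 0.577 and -1.38 for COL4A4, -1.01 and 1.40 for COL24A1, and -0.727 and 1.62 for LOXL3. Each experiment has 1 library per condition, so the difference between the experiments was not tested, and the highest count of these genes in any library was 50, 19 and 33.

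COL23A1, which the filter left out of the tests, had 77 counts in shPML replicate 2 and 0 in the other 3 libraries. The same library held 141 CPM of the 5 leukocyte marker genes together, against 0.111 to 0.181 CPM in the others, with CD3E at 0 in every library. Whether the COL23A1 counts and the marker counts come from the same source was not tested.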

How the results depend on the processing

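With the replicate block in edgeR, which changed the calls from 0 and 0, 7 of the collagen and enzyme genes were called higher and 2 lower; DESeq2 gave 6 and 2 with the block and 1 and 2 without it, the absence of a filter on low counts gave 5 and 1, at least 10 counts in every library gave 1 higher, and replicate 1 alone, added after the data were seen and without a test, gave 10 and 5. Without a filter COL23A1 was among the 5, and the other 4 were among the 7 of the block. Counts of the other pathway genes moved from 1 higher and 1 lower to 16 and 6 with the replicate block, 14 and 4 in DESeq2 with or without it, 15 and 4 without a filter, 3 and 2 at 10 counts in every library, 0 and 0 with RLE scaling (smallest adjusted p of any gene 0.0501), and 19 and 7 in replicate 1 alone. Leaving out a library gave 0 calls in both directions for these genes and for the collagen and enzyme genes; such a fit has 1 library in a group, assumed to vary like the other group, and has no residual degrees of freedom with the block. Across all genes such fits still made 1 to 11 higher and 0 to 29 lower calls. The median of the chains was -0.063 to 0.34 with a library left out (lowest without shPML replicate 2) and 0.32 within replicate 2, and that of the enzymes 0.12 to 0.34 (highest without shCtrl replicate 2) and -0.025 within replicate 2. Fold thresholds of 0 and 1 changed no count without the block. With the replicate block, as added after the data were seen, they gave 10 and 1 higher and 2 and 1 lower among the collagen and enzyme genes, and 19 and 8 higher and 7 and 3 lower among the other pathway genes. Signs turned in genes that neither edgeR nor DESeq2 called in any fit above. The fits with a library left out had no block, so the difference between the experiments enters their values. With a library left out, values ran from -0.20 to 1.08 for COL18A1, lowest without shPML replicate 2, -0.69 to 1.01 for COL24A1, -1.35 to 0.55 for COL4A4, -0.16 to 0.064 for COL7A1, -0.31 to 0.045 for COL8A1, -0.79 to 0.61 for LOXL1, -0.85 to 1.75 for LOXL3, -0.17 to 0.13 for P4HA1, -0.015 to 0.31 for P4HA2, -3.97 to 0.64 for P4HA3 and -0.014 to 0.34 for PLOD2, and P4HA1 was at 0.0020 with at least 10 counts in every library. The cause was not tested. Depth limits the 18 chains left out and all chains under 50 counts.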
